A study of Mus musculus with 2 samples.

Results

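The cells described here are 540 non-cycling melanoma barcodes, out of 18252 barcodes in the series, that gave the highest share of their RNA to Trp53inp1, Mxd4, Kcnj13 and S100b. A barcode marks 1 droplet and usually 1 cell. The pool they were drawn from held 3601 barcodes with at least 5000 unique molecular identifiers (UMIs, each counting 1 captured RNA molecule), at most 10% mitochondrial UMIs, no UMI of Ptprc (which encodes CD45), at least 0.5% of UMIs from Pmel, Mlana, Dct and Tyrp1, and under 0.05% from the cycling genes Top2a, Mki67, Cdk1, Prc1, Cenpf and Aurkb. Within each library the 15% of this pool with the highest share of the 4 choosing genes are called members, and the other 85% are called the rest. The members numbered 154 in library 1 and 386 in library 2, against 873 and 2188 in the rest.

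B16F10 is a pigmented mouse melanoma line grown as a transplanted tumour. RNA of single cells sorted from such tumours for the leukocyte surface protein CD45 was sequenced from its 3′ end in droplets, 2 weeks after injection and with 5 tumours pooled for each of 2 samples. The hosts of one sample were LysM-cre x Rel+/+ mice and those of the other were LysM-cre x RelloxP/loxP mice, in which Cre made from the lysozyme promoter of myeloid cells removes c-Rel from the host's myeloid cells; both groups carry the Cre, and the melanoma cells are the injected line. The barcodes are marked only as library 1 or library 2, and no label ties a library to a genotype, so no genotype effect was read. With 1 library per genotype there is no replicate, and all intervals below are 95% intervals for counting error alone.

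The 4 choosing genes have different roles. S100b encodes a calcium-binding protein of melanocytes and glia that is a clinical marker of melanoma and can bind p53. Trp53inp1 encodes a p53-induced nuclear protein that promotes p53 activity and autophagy. Mxd4 encodes a MAX partner that represses genes activated by MYC, the main transcription factor of growth and ribosome production. Kcnj13 encodes an inwardly rectifying potassium channel known from pigment cells and retinal pigment epithelium. As background, p53 halts the cell cycle through targets such as Cdkn1a (p21), which blocks cyclin-dependent kinases, and melanocyte differentiation is driven by MITF and SOX10, which switch on the enzymes of melanin synthesis and the proteins of the melanosome.

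The members had no Ptprc UMI by the rule, although the sort was for CD45. Library 1 held 7688 barcodes with 49129318 UMIs and library 2 held 10564 with 73507228. Members had a median of 15133 UMIs in library 1 and 10403 in library 2, somewhat below the 16992 and 11681 of the rest. Median mitochondrial shares were 4.80% and 5.02% in members and 3.80% and 3.88% in the rest. Of the barcode sequences, 3609 occurred in both libraries, among them those of 99 members of library 1 and 85 of library 2. No such member had a twin with more UMIs in the other library. Fibroblast and keratinocyte markers were at or near 0 in members (summed level at most 0.234 counts per 1000000 UMIs, CPM). Macrophage markers summed to 82.0 and 64.9 CPM in members, 62.9 and 69.3 in the rest, and 7846 and 6109 in the immune barcodes, which are 170 barcodes with at least 2 Ptprc UMIs and under 0.1% melanoma-gene UMIs.

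S100b accounted for most of what placed a barcode among the members. It supplied 66.7% of the members' choosing-gene UMIs in library 1 and 80.8% in library 2, and was the leading gene of the 4 in 137 of 154 and 365 of 386 members. Mxd4 supplied 11% and 9.85%. Kcnj13 supplied 18.9% and 3.79%, but 1 barcode of library 1 held 196 of that library's 435 Kcnj13 UMIs in members. Trp53inp1 supplied 3.47% and 5.59%, with a UMI in 43 of 154 and 135 of 386 members. These levels chose the members and are a description only.

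The share of the 4 genes had 1 peak at low values and a long tail, with no gap at the point where members begin. The last member of library 1 had 571.4 choosing-gene CPM and the first barcode outside had 569.2, and in library 2 these values were 683.6 and 683.4. Members had a median of 811 in library 1 and 938 in library 2, and the rest 214 and 246. The members are thus the upper end of a range, and no value sets them off as a separate group.

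**Figure D1:**
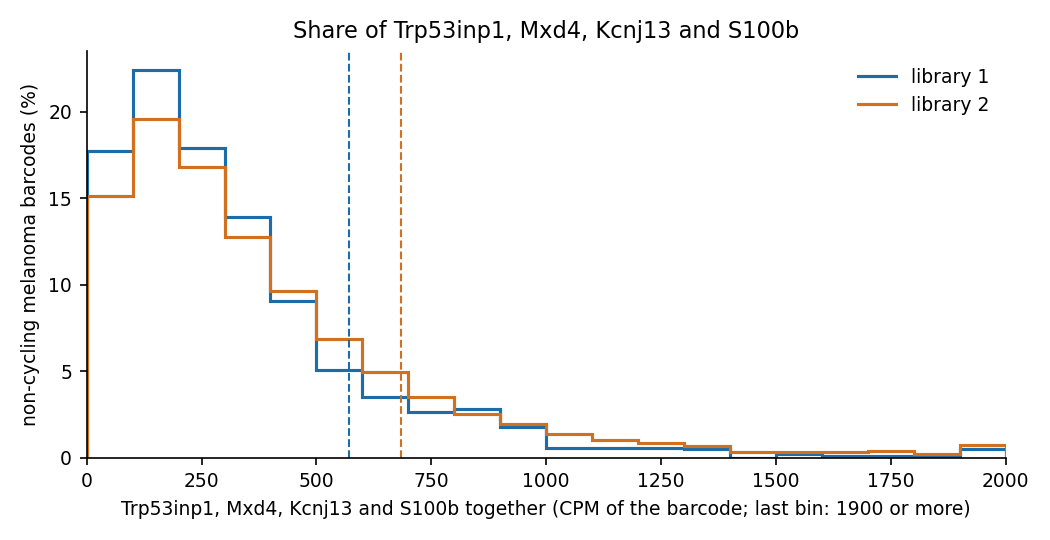
Distribution of the choosing-gene share over the non-cycling melanoma pool. The horizontal axis gives Trp53inp1, Mxd4, Kcnj13 and S100b together, in CPM of the barcode, the vertical axis the percent of barcodes of each library, and the dashed lines mark the lowest member (571.4 in library 1, 683.6 in library 2). Both distributions have a single low peak and a tail to the right.

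Each choosing gene was higher in the barcodes chosen by the other three. Those chosen without Trp53inp1 had it at 27.4 CPM against 7.74 in library 1 and 44.4 against 15.5 in library 2, ratios of 3.55 (interval 2.58 to 4.84) and 2.86 (2.40 to 3.41). Mxd4, left out in the same way, had ratios of 2.38 and 2.81, and S100b 1.89 and 1.74. Kcnj13 had 19.4 and 9.66, but 1 barcode held 196 of its 368 UMIs in the chosen set of library 1. Barcodes in the top 15% by S100b alone had Trp53inp1 ratios of 1.99 and 2.08, Mxd4 ratios of 2.03 and 2.50 and Kcnj13 ratios of 3.36 and 9.86. These ratios describe the choosing genes and are not counted among the differences below. The members were chosen with earlier results of these data known, so the ratios are no independent support for them as a group.

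The 4 choosing genes lie on different chromosomes (mouse build GRCm38, called mm10 by the browser, with GENCODE M21 gene bounds). S100b spans chr10:76253853-76261159 on the plus strand, Trp53inp1 chr4:11156431-11174379 on the plus strand, Mxd4 chr5:34173883-34187720 on the minus strand and Kcnj13 chr1:87386363-87394729 on the minus strand. All 4 are annotated as protein-coding.

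Members were compared with the rest by the ratio of summed CPM in each library. A gene counted as higher or lower when the greater level exceeded the other by 25% or more, the same way in each library. It had to have 200 UMIs or more over members and rest in each library, which 7003 genes had. By this rule 597 genes (8.52%) were higher and 943 (13.5%) were lower. The 2 libraries gave like ratios across genes (Pearson r = 0.783 over 7003 genes, which are not independent replicates), and 26 genes passed the margin in opposite directions. The median log2 ratio over all these genes was -0.03.

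**Figure D2:**
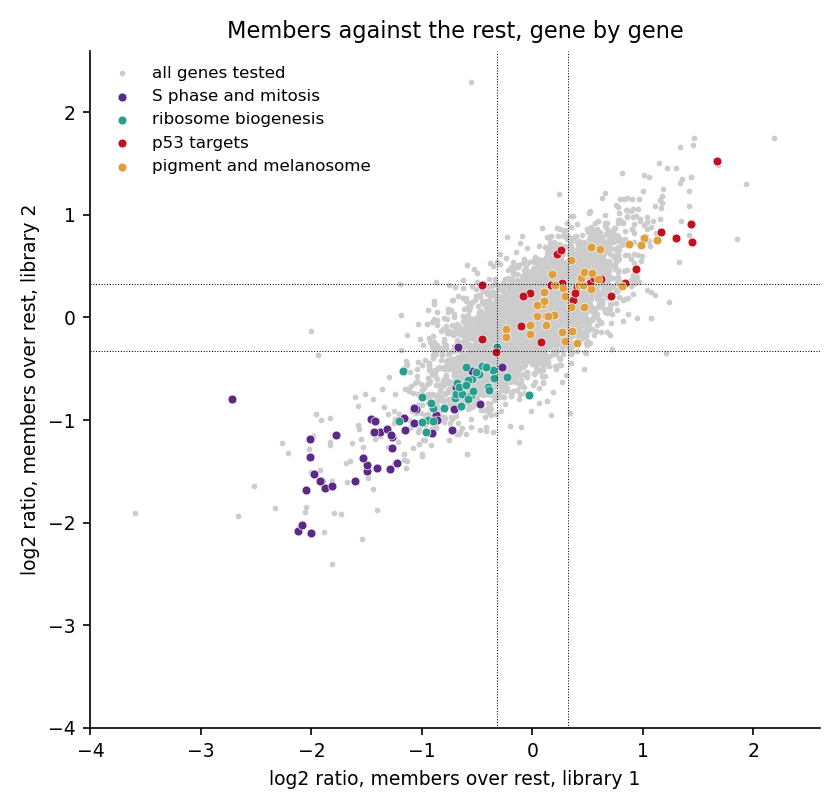
Ratio of members to rest for each of the 7003 genes, as log2, with library 1 on the horizontal and library 2 on the vertical axis; dotted lines mark the 25% margin. S phase and mitosis genes and ribosome biogenesis genes lie at the lower left, and most p53 targets and pigment genes lie to the upper right of 0. The point with the highest ratio in library 2 is the globin Hbb-bs (0.682 in library 1 and 4.9 in library 2), 1 of the 26 genes past the margin in opposite directions.

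The largest difference was in genes of DNA replication and mitosis. The 6 cycling genes of the rule were held low in both groups by construction, but of 43 measured S phase and mitosis genes outside the rule, 41 were lower in members and 0 were higher, with a median log2 ratio of -1.27 against -0.03 for all genes. Rrm2, a subunit of the enzyme that makes deoxyribonucleotides, was at 18.9 CPM in members and 78.5 in the rest in library 1, and at 26.3 and 84.2 in library 2 (ratios 0.241 and 0.312). Cdc20, which activates the anaphase-promoting complex in mitosis, was at 8.41 against 33.7 CPM and 7.27 against 31.2 CPM. Members were the lower group for both genes in both libraries, and cycling melanoma barcodes were higher still, with Rrm2 at 205 and 197 CPM.

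Several other genes at the low end belonged to the same machinery. Plk1, the mitotic polo-like kinase, had ratios of 0.230 and 0.237, Cdt1, which loads the replicative helicase, 0.235 and 0.246, and Pclaf, a partner of the sliding clamp PCNA, 0.199 and 0.276. Pimreg, Kif4, Mns1, Shcbp1, Pola1, Cdca7, Pbk, Sapcd2 and Hmmr were also among the 15 lowest. Chek1, the checkpoint kinase that is active in S phase, was the gene of the p53 regulator list that was lower (ratios 0.253 and 0.448), while Trp53 itself was at 69.0 against 68.1 CPM and 56.0 against 57.5 CPM.

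RNA of the S phase and mitosis list was still present in members. The S phase and mitosis list took a median of 0.208% and 0.212% of UMIs in members, 0.507% and 0.530% in the rest and 1.16% and 1.08% in cycling melanoma barcodes. H2afz, a histone variant also made outside S phase, was the most abundant gene of the list in members, at 1025 and 922 of its 2782 and 2843 CPM. No UMI of the 6 cycling genes was seen in 44.2% and 45.9% of members, against 19.9% and 24.2% of the rest. Cell division was not measured, and RNA levels do not tell a resting cell from one in early G1. Among G1 genes, Ccnd2 (cyclin D2) was higher (636 against 404 CPM and 858 against 547 CPM), E2f3 was lower (ratios 0.615 and 0.582), and Ccnd1 (cyclin D1) had ratios of 1.06 and 1.0.

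The promoters of 3 of the lower genes are shown because they carry motifs known from cell cycle genes: the E2F motif TTGGCGC, the CHR motif TTTGAA and the CCAAT box. Each stretch is 100 bases from RefSeq on GRCm38.p6, upstream of the start site and written along the gene's own strand, with the matches of the 1 motif named for that gene in capitals, on whichever strand they occur. They are Mcm5 (a subunit of the replicative helicase, chr8:75109315-75109414, plus strand, E2F motif read on the opposite strand), Cdc20 (chr4:118437344-118437443, minus strand, CHR, with CCAAT letters left in lower case) and Ccnb1 (cyclin B1, chr13:100786499-100786598, minus strand, CCAAT).
Mcm5: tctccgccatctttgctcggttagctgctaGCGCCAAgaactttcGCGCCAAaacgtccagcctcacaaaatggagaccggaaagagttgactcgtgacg
Cdc20: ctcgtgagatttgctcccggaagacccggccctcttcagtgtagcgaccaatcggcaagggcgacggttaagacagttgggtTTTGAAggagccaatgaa
Ccnb1: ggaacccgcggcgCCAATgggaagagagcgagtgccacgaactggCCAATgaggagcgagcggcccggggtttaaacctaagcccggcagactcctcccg

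Mcm5 was at 18.1 against 66.6 CPM (library 1) and 19.2 against 60.8 CPM (library 2), and Ccnb1 at 16.4 against 57.8 CPM and 18.3 against 57.0 CPM. Promoter entries were found for 35 S phase and mitosis genes, and in the 250 bases before their start sites 74.3% held a CCAAT box on either strand, against 39.9% of 5607 genes tested and 37.5% of all 27025 promoters. The CHR letters were in 25.7% of the 35, 12.1% of genes tested and 18.3% of all promoters. The E2F letters TTGGCGC were in 8.57% of the 35, 4.67% of genes tested and 2.31% of all promoters, and the letters TTCCCGC, the other E2F motif searched, in 8.57%, 8.56% and 4.38%, so the share of TTCCCGC in the list was that of genes tested. Over all 762 lower genes with an entry the shares of TTGGCGC and TTCCCGC were 7.22% and 12.5%, and over 474 higher genes 3.59% and 6.12%. The CHR letters were in 14.2% of lower and 12.4% of higher genes, and a CCAAT box in 44.2% and 38.8%. A match describes these letters only and shows no binding.

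A list of MYC-linked genes, mostly of ribosome production and called ribosome biogenesis genes here, was the second broad group at a lower level. It also holds genes of other roles, among them Srm, Cad, Odc1, Nme1, Eif4a1 and the mitochondrial chaperones Hspd1 and Hspe1. Of 35 measured genes, 32 were lower and 0 higher, with a median log2 ratio of -0.66, and all 35 had ratios below 1 in both libraries. Ncl, the nucleolar protein nucleolin, was at 700 against 1306 CPM (library 1) and 804 against 1484 CPM (library 2). Dkc1, which modifies ribosomal RNA, had ratios of 0.433 and 0.498, Srm, the spermidine synthase, 0.499 and 0.494, Cad, the first enzyme of pyrimidine synthesis, 0.513 and 0.461, and Npm1, another nucleolar protein, 0.700 and 0.691. The fold was thus near 2 for several growth genes and smaller for the abundant Npm1.

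The RNAs of the ribosome itself did not share this difference. None of 32 measured cytosolic ribosomal protein genes passed the margin, and their median log2 ratio was -0.05. Myc had ratios of 1.03 (interval 0.737 to 1.40) and 0.771 (0.586 to 0.999), and Mxd1, another MAX partner of the MXD family, was higher with ratios of 1.47 and 1.52. Of the 8 measured genes of the MYC and MXD network, Mxd1 was the one that passed. Heat shock chaperones were lower in 7 of 14 (all genes, 13.5% lower), among them mitochondrial Hspd1 (770 against 1485 CPM and 706 against 1412 CPM), and none was higher. Hspd1 and Hspe1, both lower, are counted in the ribosome biogenesis list as well.

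Of 27 measured p53 target genes, 10 were higher and 1 lower, with a median log2 ratio of 0.35, where 8.52% of all genes were higher and 13.5% lower. Cdkn1a was at 318 against 130 CPM in library 1 (ratio 2.46, interval 2.26 to 2.67) and 516 against 302 CPM in library 2 (1.71, 1.63 to 1.79). Ccng1 (cyclin G1, a feedback regulator of p53) was at 106 against 39.3 CPM and 131 against 69.4 CPM. Phlda3, an inhibitor of AKT, was at 209 against 93.4 CPM and 208 against 117 CPM. Members were higher than the rest for these 3 targets in both libraries. In library 1, 10 members held 39.5% of the members' Cdkn1a UMIs, 42.1% of those of Ccng1 and 29.4% of those of Phlda3. In library 2 the shares held by 10 members were 13.6%, 15.3% and 11.3%.

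Dcxr, a carbonyl reductase, had the largest ratio of the p53 target list, at 73.2 against 23 CPM in library 1 (3.18, interval 2.63 to 3.82) and 117 against 40.4 CPM in library 2 (2.88, 2.59 to 3.21). Ephx1 (an epoxide hydrolase), Zmat3 (an RNA-binding protein), Bbc3 (the cell death inducer PUMA), Ano3, Ei24 and Polk (a DNA polymerase for damaged templates) made up the rest of the 10. Tigar, which lowers glycolysis, was lower with a ratio of 0.79 in both libraries. Mdm2, the ligase that degrades p53 and a common readout of its activity, did not pass, at 66.5 against 51.6 CPM and 66.6 against 59.0 CPM, and neither did Bax, with ratios of 1.32 and 1.23. The p53 targets were therefore higher in part and not as a whole list.

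Growth arrest and FOXO-linked genes were higher in 5 of 19 and lower in 0, with a median log2 ratio of 0.32 (all genes, 8.52% higher). At low S phase and mitosis share, a comparison described further on, the median was -0.04, with 1 of 12 higher. Sesn3, a sestrin that restrains mTORC1, was at 57.6 against 21.6 CPM and 47.1 against 22.1 CPM. Pik3ip1, an inhibitor of PI3 kinase, had ratios of 2.68 and 2.35, Tob1, an antiproliferative regulator of mRNA decay, 1.52 and 1.58, and Rbl2 (p130, the pocket protein of resting cells) 1.37 and 1.48. Cdkn1b (p27) had ratios of 1.09 and 1.45 and did not pass. The list's medians differed between the libraries, at 0.16 in library 1 and 0.51 in library 2.

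Pigment and melanosome genes outside the rule were higher in 11 of 37 and lower in 0, with a median log2 ratio of 0.26 (all genes, 8.52% higher). Tyr (tyrosinase, the rate-limiting enzyme of melanin synthesis) was at 183 against 126 CPM (library 1) and 209 against 130 CPM (library 2). Ptgds, the prostaglandin D2 synthase of melanocytes, was at 2657 against 1213 CPM and 2218 against 1311 CPM. Cited1, a melanocyte transcription cofactor, was at 394 against 196 CPM and 330 against 193 CPM, and Gpnmb, a melanosome glycoprotein, at 3599 against 2658 CPM and 3539 against 2705 CPM. Oca2, Rab17, Hps4, Apoe, Erbb3, Myo5a and Gsta4 were the other genes that passed.

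The regulators of the melanocyte programme differed less than its products. Mitf was at 408 against 380 CPM and 285 against 240 CPM (ratios 1.08 and 1.19), and Sox10 had ratios of 1.13 and 1.34, so neither passed in both libraries. Of the 4 melanoma genes of the rule, which had to reach a minimum in both groups, Dct had ratios of 1.26 and 1.26, Mlana 1.36 and 1.11, Tyrp1 0.944 and 0.955, and Pmel 1.14 and 0.930. Of 26 genes of dedifferentiated or neural crest-like melanoma 6 were measured, and none passed in either direction (all genes, 8.52% higher and 13.5% lower). So few genes cannot tell this from the shares of all genes. Their median log2 ratio was 0.19, with 4 above 1 in both libraries and 0 below 1 in both. S100 genes other than S100b were higher in 3 of 7: S100a1 (376 against 168 CPM and 383 against 197 CPM), S100a13 (ratios 2.22 and 2.22) and S100a6 (1.97 and 1.47).

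Tyr and Kcnj13 promoters are shown because both hold the M-box TCATGTG, a site type that MITF is known to bind. Both are RefSeq stretches of 100 bases on GRCm38.p6, written along the gene's own minus strand, with the M-box in capitals: Tyr at chr7:87493513-87493612 and Kcnj13 at chr1:87394787-87394886, where it reads on the opposite strand.
Tyr: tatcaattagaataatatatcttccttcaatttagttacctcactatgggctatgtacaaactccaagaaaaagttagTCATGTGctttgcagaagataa
Kcnj13: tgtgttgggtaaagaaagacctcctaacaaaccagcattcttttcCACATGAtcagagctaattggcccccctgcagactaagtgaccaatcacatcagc

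The first base of the M-box stood at position -22 from the RefSeq start site of Tyr and at -112 from that of Kcnj13. Of the 28 pigment genes with a promoter entry, 21.4% held the M-box on either strand in the 250 bases before the start, against 2.19% of genes tested and 3.72% of all promoters. Among genes higher in members the share was 4.43%, and among lower genes 2.10%. The E-box CACGTG was in 25% of the pigment promoters and 10.9% of genes tested. It was also in 18.2% of p53 target and 16.7% of ribosome biogenesis promoters, and in 10.3% of higher and 12.1% of lower genes.

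Autophagy and lysosome genes were higher in 11 of 33 and lower in 0, with a median log2 ratio of 0.28 (all genes, 8.52% higher). Ctsa, a lysosomal carboxypeptidase, was at 153 against 101 CPM and 175 against 101 CPM, and Map1lc3a (LC3A, which coats autophagosomes) had ratios of 1.51 and 1.65. Ctsd (cathepsin D) was just past the margin, at 817 against 647 CPM and 701 against 560 CPM. Atp6ap1, Scarb2, Gabarapl1, Atp6v0d1, Glb1, Gabarap and Neu1 were among the others that were higher. At low S phase and mitosis share 10 of the 11 could be measured and 4 passed again; Ctsa (1.09 and 1.36), Atp6ap1, Atp6v0d1, Gabarap and Gabarapl1 were among those that did not.

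Hypoxia and glycolysis genes were higher in 5 of 33 and lower in 0 (median log2 ratio 0.24; all genes, 8.52% higher), with Aldoc, a glycolytic aldolase, at 175 against 101 CPM and 176 against 79.2 CPM, and Car9, the carbonic anhydrase of hypoxic cells, at 79.5 against 49.9 CPM and 106 against 56.1 CPM. Neither passed at low S phase and mitosis share (Aldoc 1.22 and 1.51, Car9 1.06 and 1.24). Antigen presentation genes were split, with 3 higher and 2 lower of 6 measured (all genes, 8.52% higher and 13.5% lower). H2-K1 (249 against 161 CPM and 327 against 145 CPM), B2m and Tapbp were higher, and the chaperones Calr and Pdia3 lower. At low S phase and mitosis share B2m passed again (1.28 and 1.39), H2-K1 (1.11 and 1.53), Calr and Pdia3 did not, and Tapbp was not measured. Reads of H2-K1 can be shared with its close class I relatives, and nothing used here states how such reads were counted. Interferon-induced genes were higher in 4 of 10 (Ifi35, Rsad2, Ifi27 and Tapbp, which is in both lists) and lower in 2 (Cxcl10 and Psmb8). The interferon list median had opposite signs, -0.05 in library 1 and 0.44 in library 2.

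**Figure D3:**
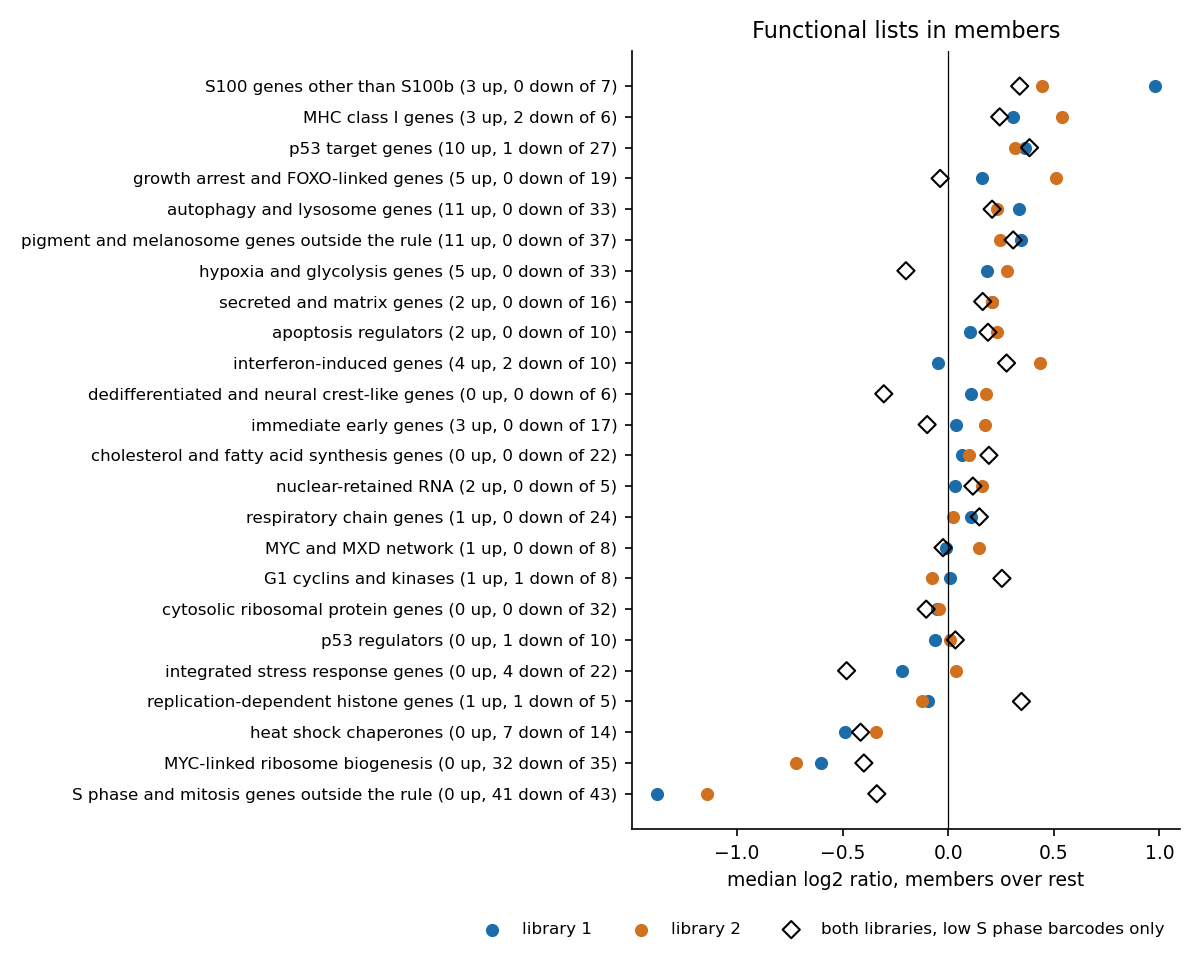
Median log2 ratio of members over rest for each functional list with at least 5 measured genes, with library 1 and library 2 as filled points; the numbers beside each list count genes past the 25% margin in both libraries. Open diamonds give the median over both libraries, for the list genes still measured, when members and rest were both limited to barcodes with a low S phase and mitosis share. The p53 and pigment medians, over fewer genes than the filled points, stay above 0 (0.38 and 0.31), and the hypoxia median moves to -0.20.

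The genes with the highest ratios outside these lists had varied roles. Vamp5, a vesicle SNARE protein, was at 399 against 124 CPM (library 1) and 399 against 143 CPM (library 2) (ratios 3.21 and 2.79). Ypel3, a growth-suppressing protein known as a p53 target, was at 44.6 against 16.2 CPM and 37.8 against 11.2 CPM. Coq8a, needed for coenzyme Q synthesis, was at 74.0 against 27.0 CPM and 49.9 against 15.6 CPM. These 3 genes were higher in members by more than 2.5-fold in each library.

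Selenop, a selenium carrier protein, had ratios of 2.70 and 2.59, Pdcd4, an inhibitor of translation initiation, 2.33 and 2.75, Pink1, the kinase that starts mitophagy, 2.21 and 2.83, Uba7, which activates the ubiquitin-like protein ISG15, 2.52 and 3.17, and Adssl1, an enzyme of purine interconversion, 2.56 and 2.55. Npnt (nephronectin, a matrix protein), Nipal3 and Snhg7os were also among the 15 highest. Snhg7os lies antisense to Snhg7, and since nothing used here states whether counting used strand, its reads may not be separable from those of its partner. Malat1, a nuclear RNA, was at 7929 against 4477 CPM and 13413 against 6030 CPM.

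A few of the highest ratios rested on few barcodes. Cck, a gut and brain peptide hormone, had the highest ratio over both libraries (556 against 122 CPM and 27.0 against 8.0 CPM), but 10 members held 96.2% of its UMIs in library 1 and 97.4% in library 2. Mgll, a lipase of monoglycerides, was at 442 against 123 CPM and 110 against 64.7 CPM, with 53.1% and 42.8% of its UMIs in 10 members. Hbb-bs, a globin of red blood cells named here after its values were seen, had ratios of 0.682 and 4.90, and 650 of its 716 UMIs in members of library 2 came from 1 barcode. Ptgds was broadly spread, with a UMI in 154 of 154 and 386 of 386 members and 23.8% and 10.8% of its UMIs in 10 of them.

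**Figure D4:**
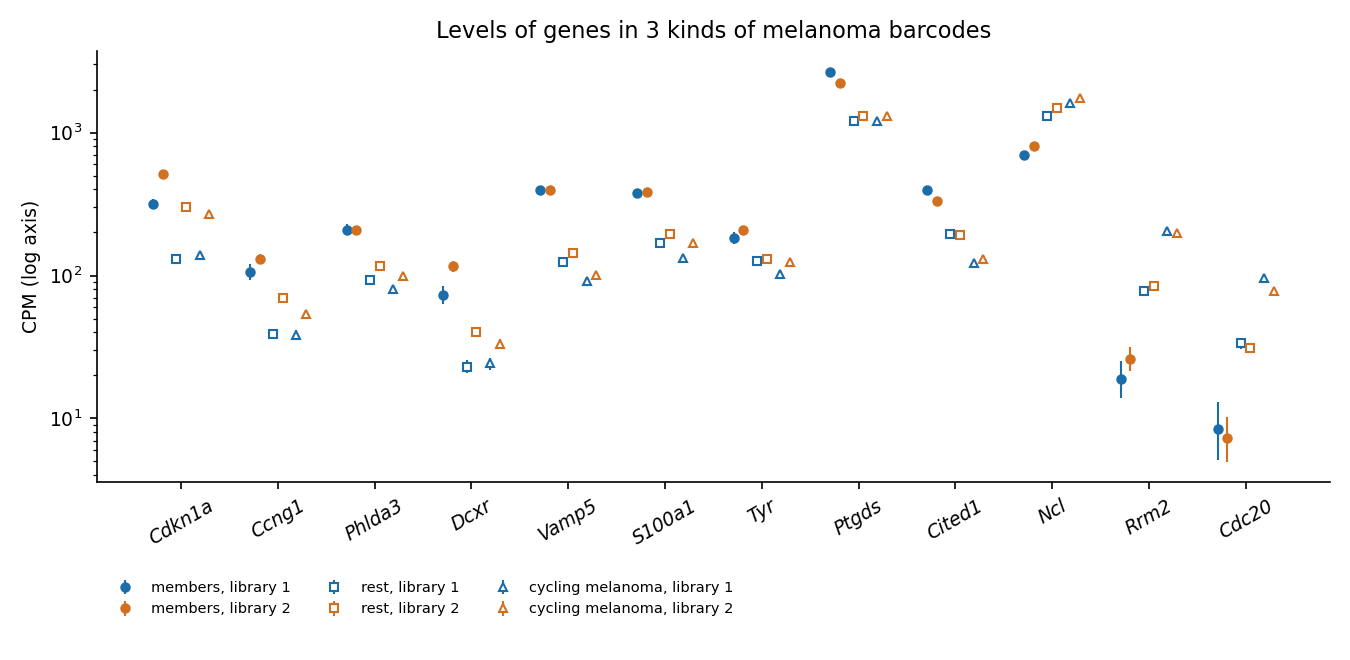
Levels of 12 genes in members (filled circles), the rest (open squares) and cycling melanoma barcodes (open triangles) of library 1 and library 2, in CPM on a log axis, with exact Poisson intervals for counting error. Members lie above both other groups for Cdkn1a through Cited1 and below them for Ncl, Rrm2 and Cdc20.

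Detection in single barcodes gave the same direction once depth was equal. After each barcode was thinned to 5000 UMIs, Vamp5 had a UMI in 76.6% of members and 42.8% of the rest in library 1, and in 78.2% and 45.6% in library 2 (unthinned 96.1% and 75.1%, 90.2% and 70.5%). In immune barcodes, with median depths of 6860 and 5932 UMIs before thinning, the thinned share was 17.7% and 10.3%. Cdkn1a had a UMI in 52.6% of members and 36.2% of the rest in library 1, and in 74.6% and 55.4% in library 2. Immune barcodes, which also express this gene, reached 51.8% and 69.0%.

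Most of these differences built up over the whole pool. Ordered by the choosing-gene share, the ribosome biogenesis list summed to 13402 CPM in the lowest 20% of library 1, 10766 in the middle 20%, 8287 just below the members and 7459 in members, and in library 2 to 13443, 11329, 9058 and 7404. The lowest 20% were at the level of cycling melanoma barcodes (12715 and 12618 CPM). The S phase and mitosis list went from 7449 CPM in the lowest 20% to 2782 in members in library 1 and from 6974 to 2843 in library 2, with cycling barcodes at 11636 and 10706.

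The p53 list did not follow the same course in both libraries. In library 1 it stood at 2247 CPM in the lowest 20%, 2493 just below the members and 3238 in members. Cdkn1a there went from 139 CPM just below to 318 in members. Of those Cdkn1a UMIs in members, 10 members held 39.5%. In library 2 the list stood at 2747 CPM in the lowest 20%, 3544 just below and 3743 in members, an even slope, and Cdkn1a was at 527 just below and 516 in members. Pigment genes outside the rule were at 11436 CPM in the lowest 20%, 13529 just below and 15963 in members in library 1, and at 10432, 11820 and 13800 in library 2. Hypoxia and glycolysis genes were no higher in members (41837 and 40273 CPM) than just below them (42886 and 40683 CPM).

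**Figure D5:**
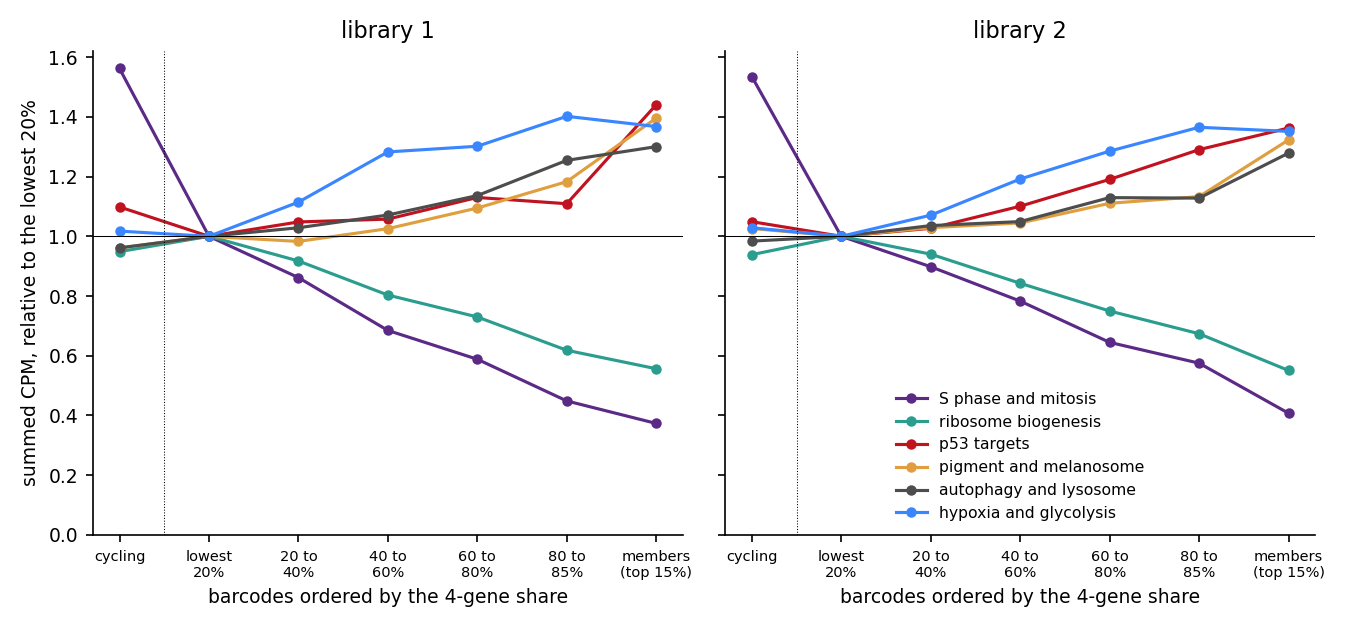
Summed CPM of 6 lists, relative to the lowest 20%, in barcodes ordered by the choosing-gene share; the first point of each line is cycling melanoma barcodes. S phase and mitosis genes and ribosome biogenesis genes go down through the range to members at the right, while pigment genes and lysosome genes go up and hypoxia genes level off just before the members.

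The same barcodes did not lead every list. After thinning to 5000 UMIs, members made up 15% of the pool, and 43.5% of members in library 1 and 32.1% in library 2 were also in the top 15% of the pool by pigment genes. For p53 targets these shares were 34.4% and 30.3%, and for lysosome genes 33.1% and 32.4%. At the other end, 49.4% and 49.0% of members were in the lowest 15% by ribosome biogenesis genes, and 1 member of each library was in the top 15%. Most members were therefore outside the top 15% for p53 targets and for pigment genes. At this depth the p53 list gave a median of 14 UMIs per member in library 1 and 16.5 in library 2, against 11 and 13 in the rest, so counting error limits these shares.

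Because members were so low in S phase and mitosis genes, the comparison was repeated within the barcodes whose share of that list was below the pool median, an alternative chosen after seeing the data. It kept 129 and 331 members against 385 and 956 of the rest. Of 4589 genes measured there, 309 (6.73%) were higher and 304 (6.62%) lower, and 225 of the higher and 182 of the lower genes were among those of the whole comparison. The share of higher genes among those called was 50.4%, against 38.8% before.

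Over the genes measured there, pigment genes were higher in 9 of 30 (median log2 ratio 0.31) and p53 targets in 4 of 15 (0.38). The medians of the whole comparison were over 37 and 27 genes, so they are not over the same genes. Dcxr had ratios of 3.21 and 2.41 and Ccng1 2.55 and 1.59. Of the 11 p53 targets that had passed, 7 could be measured and 4 passed again; Cdkn1a (1.53 and 1.21), Zmat3 (1.92 and 1.23) and Ano3 did not. Of the 11 pigment genes, 9 could be measured and 7 passed again; Cited1 (1.40 and 1.22) and Gpnmb (1.21 and 1.20) did not. Ptgds (2.32 and 1.74), Tyr (1.48 and 1.61), Vamp5 (2.56 and 2.21) and S100a1 (2.01 and 1.78) were still higher. All 8 of the 15 highest genes that could be measured there passed again. None of the 15 lowest genes could be measured there.

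Other calls were lost. Of 86 named genes outside the rule that had passed, 55 could be measured there, 28 passed again and 27 did not. Ribosome biogenesis genes were lower in 12 of 29, with the median moving from -0.66 to -0.40. Medians of lists with fewer genes measured there are not over the same genes as before. Hypoxia and glycolysis genes went from a median of 0.24 to -0.20, with 0 higher and 4 lower of 33 and none of the 5 earlier calls passing again, and growth arrest and FOXO-linked genes from 0.32 to -0.04, with 1 higher of 12. In the whole comparison 4 of 22 integrated stress response genes had been lower (18.2%, against 13.5% of all genes). The 4 were Phgdh, Psat1, Shmt2 and Mthfd2, enzymes of serine and folate metabolism. The list's median log2 ratio was -0.22 in library 1 and 0.04 in library 2. At low S phase and mitosis share the list was lower in 13 of 20 (all genes, 6.62% lower), with a median of -0.48. Malat1 had ratios of 1.23 and 1.53 and no longer passed.

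The p53 and pigment differences also depended on which choosing gene was used. Chosen by Trp53inp1, Mxd4 and Kcnj13 without S100b, the top 15% held 48.9% of the members, and p53 targets were higher in 14 of 27 (median 0.45) and pigment genes in 5 of 37 (0.17), against 6.64% of all genes higher and 9.44% lower. Chosen by S100b alone, an alternative added after seeing the data, the top 15% held 84.6% of the members, and p53 targets were higher in 5 of 27 (0.17) and pigment genes in 12 of 37 (0.24), against 7.4% of all genes higher and 11.7% lower. The p53 median was thus higher without S100b and the pigment median higher with S100b alone, while S phase and mitosis genes were lower by both choices (medians -1.18 and -1.05).

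With all barcode sequences found in both libraries left out, 52 and 264 members remained, and the medians were -0.94 for S phase and mitosis genes, -0.55 for ribosome biogenesis genes, 0.30 for p53 targets and 0.14 for pigment genes. Those of hypoxia genes (0.04) and of growth arrest and FOXO-linked genes (-0.02) were near 0, and Cck turned lower (-0.15).

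Markers of 2 further cell types that share genes with pigment cells were low in level, but their sums were higher in members than in the rest. Schwann cell markers summed to 95.5 and 120 CPM in members and 66.8 and 78.6 CPM in the rest, with Mbp the highest (31.5 and 45.3 CPM in members) and 3 and 4 of the 11 genes at 0. Only 2 of the 11 were measured as ratios, both above 1 in both libraries (median log2 ratio 0.53). Of these, Ncam1 passed as higher (all genes, 8.52% higher), but not at low S phase and mitosis share (0.887 and 1.10). Retinal pigment epithelium markers summed to 6.31 and 4.46 CPM in members, with 5 of 7 at 0 in each library, against 3.64 and 2.87 CPM in the rest. The part of these RNAs, and of the higher mitochondrial share, in the differences above was not tested. Rel was at 9.25 against 12.3 CPM (library 1) and 11.3 against 10.9 CPM (library 2).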

How the data were processed

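The submitters' processing notes name Cell Ranger with the mm10 build, and software version 3.0.2 wrote the matrix according to its header. Raw UMI counts for each gene in each barcode are what the authors deposited, without normalisation. For each class, the UMIs of a library were added up and scaled to the class total, giving CPM. Intervals are exact (Poisson for levels, Clopper-Pearson for shares, conditional binomial for ratios) at 95% and cover counting error, and no test was made, since each genotype has 1 library and cells are not replicates. The ratio calculation was checked on simulated Poisson sums of 7002 genes. Of genes changed 1.5-fold 92.9% were called higher, and of unchanged genes 0.103% were called higher and 0.397% lower. The simulation had no variation between barcodes, so it does not cover genes whose UMIs came from few barcodes. Symbols shared by several genes, 35 in all, were not used. No doublet caller was run; doublets with leukocytes were limited by the absence of Ptprc, and an alternative left out the highest 5% of UMIs. Thinning drew 5000 UMIs per barcode without replacement.

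Genes named in the text are the 15 highest and 15 lowest by ratio over both libraries, from each of 25 functional lists the 3 with the largest ratios and the 2 with the highest levels, and a set of regulators; other genes of a list that passed are named to complete its count, and promoter genes for their motifs. Some genes that the rule takes are not reported here. Members and lists were chosen with earlier results of these data known. Promoters are RefSeq entries; Trp53inp1 has none in the table used. Python 3.11.15, numpy 2.4.6, scipy 1.17.1, pandas 2.3.3 and matplotlib 3.10.9 were used.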

Additional observations from a re-analysis of the deposited data

Results flagged for a closer look

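Of the genes named, 5 had ratios of members over the rest on opposite sides of 1 in the 2 libraries, with counting intervals that leave out 1 in each. Ctsz, a lysosomal cathepsin, had ratios of 1.08 in library 1 and 0.941 in library 2. Jun, an immediate early transcription factor, had 0.813 and 1.15, and Ndufa4, a respiratory chain subunit, 1.10 and 0.929. Pmel, the melanosome fibril protein and a gene of the rule, had 1.14 and 0.930. Hbb-bs had 0.682 and 4.90, and 1 barcode held 650 of its 716 UMIs in members of library 2. The difference between libraries was not tested for any of them, since each is a single library.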

How the results depend on the processing

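No paired analysis of the 2 genotypes was possible, because each has a single library and no label ties a library to a genotype. Members and rest were set against each other within each library throughout. At low S phase and mitosis share, 27 of 55 measured named genes lost their call, among them Cdkn1a, Cited1, Gpnmb, Ctsa, Car9, Aldoc, H2-K1, S100a6, Bcl2l1, Pfkl, Tuba1b and Calr. Over all alternatives 794 log2 ratios of named genes moved by more than their counting error. Of 1653 values for named genes that passed, 3 turned in sign; these were Lgals3 (log2 ratio -0.061 in barcodes with no cycling-gene UMI), Cck (-0.15 without shared barcode sequences) and Jund (-0.10 in barcodes low in S phase and mitosis genes).

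Counts of genes higher and lower, 597 and 943 in the main comparison, were 165 and 310 at 1.5-fold, 182 and 410 with at least 1000 UMIs per gene, 179 and 341 after thinning, 195 and 267 with no cycling-gene UMI, 167 and 288 without shared barcode sequences, and 309 and 304 at low S phase and mitosis share; with at least 50 UMIs, 1047 were higher. Fewer genes were measured in each of these settings except those of 1.5-fold and of 50 UMIs. The median log2 ratio of p53 targets (0.35) was 0.42 at 50 UMIs, 0.39 at 1000 UMIs, 0.28 thinned, 0.28 for the top 25%, 0.54 against the lowest 15%, 0.26 with at most 5% mitochondrial UMIs, 0.14 with no cycling-gene UMI, 0.30 without the highest 5% of UMIs, 0.30 without shared sequences, 0.45 choosing without S100b and 0.17 by S100b alone. That of pigment genes (0.26) was 0.18 for the top 25%, 0.19 with at most 5% mitochondrial UMIs, 0.43 with no cycling-gene UMI, 0.14 without shared sequences and 0.17 without S100b. That of S phase and mitosis genes (-1.27) was -0.95 thinned, -1.49 for the top 10%, -1.61 against the lowest 15%, -0.42 with no cycling-gene UMI, -0.94 without shared sequences, -0.34 at low S phase and mitosis share and -1.05 by S100b alone. The cause of these shifts was not tested. Hypoxia genes also had a negative median with no cycling-gene UMI (-0.20), and growth arrest genes with no cycling-gene UMI (-0.16) and without shared sequences (-0.02).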
